A study of Rattus norvegicus with 16 samples.

Results

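The endothelial cells described here were the cells that the authors had named endothelial in rat intervertebral discs taken 2 weeks after lumbar disc puncture. The name was given by the authors' K-means clustering and marker genes, and it was kept for this report: 6395 of the 93925 cells of that time point (6.81%) carried it. The whole series held 149272 cells, and 8-week cells with this name are not described here. The discs came from 4 male Sprague-Dawley rats that were 8 weeks old at surgery and are numbered 1 to 4. In every rat the lower lumbar discs were stabbed once with a needle, and both punctured discs were combined into 1 library (LDP, lumbar disc puncture), while both untouched discs above them made up the control library of the same rat (CON). All 8 libraries, 4 CON and 4 LDP, were single-cell libraries of the 10x Genomics 3′ type, made after digestion of the tissue with pronase and collagenase. The controls were therefore uninjured discs of operated animals, and muscle and ligament had been trimmed away, so that the vessels left were those that came along with the disc. Puncture and lumbar level went together in every rat. A difference between LDP and CON therefore cannot be told apart from a difference between disc levels, here and in all that follows.

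The healthy disc is largely without vessels, and blood vessels enter the outer annulus fibrosus and the tissue around it. Endothelial cells line these vessels. They are held together by VE-cadherin (Cdh5), they receive growth signals through VEGF, angiopoietin, Notch and BMP receptors, and when activated they display selectins that catch leukocytes. Pericytes and smooth muscle cells, the mural cells, sit directly on the endothelial tube and are often isolated along with it.

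Cells of the class numbered 968, 336, 671 and 1128 in CON rats 1 to 4 and 257, 1281, 612 and 1142 in LDP rats 1 to 4. The remaining cells of these libraries were 79682 disc cells (the IVD class), 4303 lymphoid, 1153 myeloid and 2392 cells without a class name. The CON and the LDP cells had been clustered apart by the authors, so that the border of the class was drawn separately in each group, and a difference between the groups in what the class holds cannot be told apart from a difference in where that border lay. Between 10 and 75 cell barcodes were shared by each of the 28 pairs of libraries, and 3 barcodes in all belonged to the class in both libraries of a pair.

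The class carried the markers of its name, which is a description, since the study had named it by genes that include Cdh5, Plvap and Flt1. Of its cells, 5983 (93.6%) had a transcript of at least 2 of the 5 markers Cdh5, Plvap, Flt1, Emcn and Fabp4. The level of a gene was taken as mean CPM, the transcripts (UMIs, unique molecular identifiers) of that gene per 1000000 UMIs of a cell, averaged over the cells of the class in a library. Cdh5 was at 1237, 1324, 1275 and 835 mean CPM in CON rats 1 to 4 and at 1206, 1241, 1033 and 600.0 in LDP rats 1 to 4. The lowest library of either group was that of rat 4, and the groups overlapped. In IVD-class cells of the same libraries Cdh5 reached between 0.640 and 47.4 mean CPM.

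Plvap, which forms the diaphragms of fenestrated and caveolar endothelium, was at 1053, 1630, 1369 and 1520 mean CPM in CON and at 1196, 867, 1354 and 1500 in LDP. Flt1, the VEGF receptor 1, was at 1040, 1352, 1241 and 1225 in CON and at 1151, 1138, 1067 and 774 in LDP. The LDP library of rat 4 was lowest for Flt1 and that of rat 2 for Plvap, and for neither gene were the groups separate. Emcn, the sialomucin endomucin of capillary and venous endothelium, was the steadiest of the markers, with 643 to 819 mean CPM in CON and 671 to 729 in LDP. Fabp4, a fatty acid binding protein of capillaries, spread most: 2552 to 3366 mean CPM in CON, but 1248, 2618, 2886 and 4239 in LDP rats 1 to 4, so that LDP held both the lowest and the highest library. Ifitm3, an interferon-induced membrane protein that the study also used to name the class, was at 1637 to 2396 mean CPM in CON and 1597 to 2325 in LDP.

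**Figure D1:**
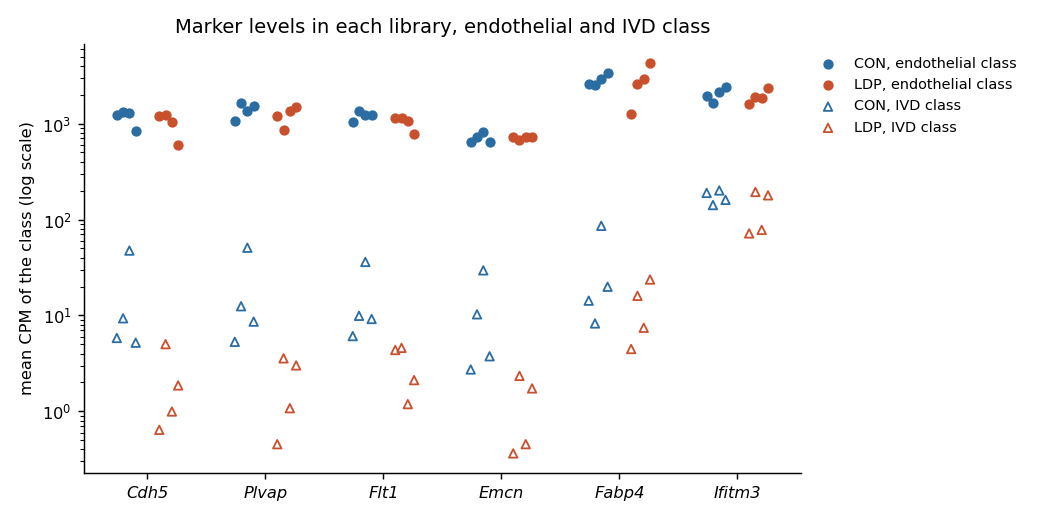
Mean CPM (log axis) of the 5 class markers and Ifitm3 in each of the 8 libraries at 2 weeks, for endothelial-class cells (filled circles) and IVD-class cells (open triangles), CON in blue and LDP in orange, rats 1 to 4 from left to right. Endothelial-class Cdh5 lies between 600.0 and 1324 mean CPM in every library, and the open triangle that stands above the others in CON is the IVD class of rat 3 (Cdh5 at 47.4).

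When every cell was thinned to 1000 UMIs, to make depth equal, a UMI of Flt1 was found in 63.5 ± 5.79% of CON and 56.5 ± 5.90% of LDP endothelial-class cells (mean of 4 libraries ± SD). The corresponding shares were 60.4 ± 6.96% and 55.1 ± 6.37% for Plvap, and 61.6 ± 6.14% and 58.4 ± 12.03% for Cdh5. An exact permutation test (two-sided, over the 8 libraries, smallest possible p = 0.0286) called none of the 6 genes. From that smallest p, no single gene could have passed after adjustment over the 6. Some of the 6 had also served to name the class in each group. The smallest exact p was 0.143, for Flt1, and the permutation p adjusted over the 6 genes was 0.686 or above. Thinning left out the 156 CON and 124 LDP cells of the class with fewer than 1000 UMIs. With all UMIs kept, Cdh5 was seen in 73.8 to 91.1% of the class in CON and 69.9 to 87.2% in LDP. In the IVD class the thinned share of cells with a UMI of Cdh5 was 0.0599 to 3.96%, at deeper cells (median 4226 to 7924 UMIs).

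The library of CON rat 3 stood apart in where its endothelial-marker cells were placed. Of its 2021 cells with at least 2 of the 5 markers, 645 were in the endothelial class (31.9%, Clopper-Pearson 95% interval 29.9 to 34.0%, which covers counting error only), against 76.8 to 90.8% in the other 7 libraries. The IVD class of this library held 1143 such cells, 9.31 per 100 IVD-class cells, where the other 7 libraries had 0.119 to 1.74 per 100. The 1143 cells of CON rat 3 had a median of 2189 UMIs, Cdh5 at 401 mean CPM and Col2a1, the main collagen of the disc, at 12331 mean CPM, whereas the endothelial class of the same library had Cdh5 at 1275 and Col2a1 at 1530. The whole IVD class of that library had Col2a1 at 13037 mean CPM. The 1143 cells thus carried endothelial transcripts beside Col2a1 near the level of disc cells, and they are not among the 6395 cells described here.

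Per 100 IVD-class cells of the same library there were 9.94, 9.89, 5.46 and 9.46 endothelial-class cells in CON and 3.06, 8.99, 5.72 and 12.7 in LDP rats 1 to 4. The LDP library was lower in rats 1 and 2 and higher in rats 3 and 4. The group means were 8.69 ± 2.16 and 7.62 ± 4.17 (SD, n = 4 libraries each), a difference of −1.07 (exact two-sided permutation p = 0.629, and p = 0.75 by exact sign flips within rats, which cannot go below 0.125). Without rat 1 the difference was 0.866, of the opposite sign. Counted instead as cells of any class with at least 2 of the 5 markers, per 100 other IVD-class cells, the means were 13.4 ± 3.19 in CON and 8.48 ± 4.80 in LDP (exact permutation p = 0.2). A difference between LDP and CON in the number of endothelial cells was thus not detectable with 4 rats, whichever count was used.

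**Figure D2:**
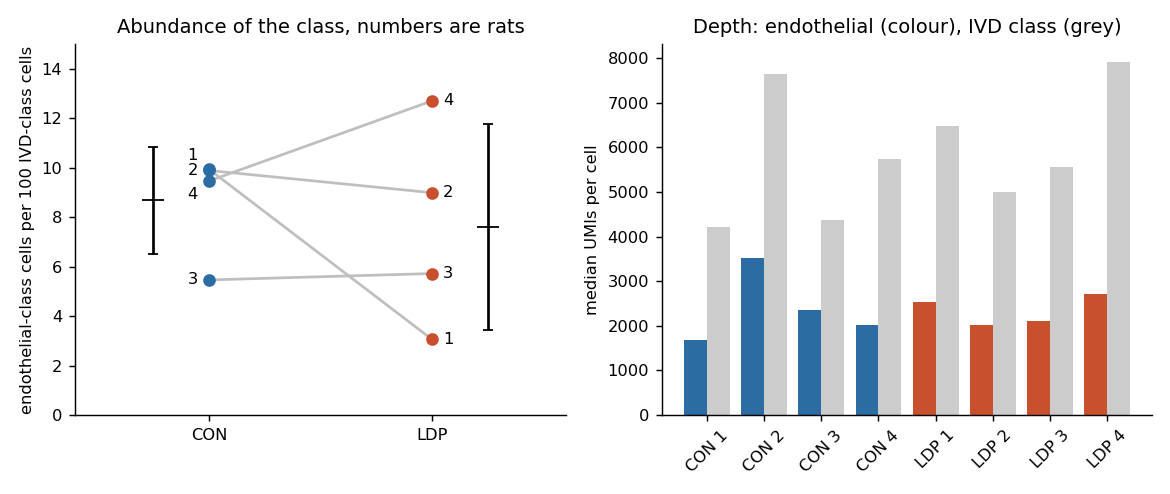
Left: endothelial-class cells per 100 IVD-class cells in CON and LDP, points joined by rat and numbered, with the mean ± SD of each group beside them (8.69 ± 2.16 and 7.62 ± 4.17). Right: median UMIs per cell in each library for the endothelial class (blue for CON, orange for LDP) and the IVD class (grey), in which the endothelial class is the shallower in all 8 libraries.

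Endothelial-class cells were shallow: their median was 1685, 3511, 2349 and 2012 UMIs per cell in CON and 2542, 2015, 2111 and 2705 in LDP, with 708905 to 3587051 UMIs in the class of a library. Median genes per cell were 857 to 1403 in CON and 976 to 1170 in LDP. Neither quantity differed between the groups (exact permutation p = 1 and 0.8). The mitochondrial share of LDP rat 2 was 5.07%, against 3.44 to 4.12% in the other libraries.

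Against the other classes, the endothelial class was set apart by known vessel genes. Since the classes had been drawn from the same values, the following is a description without a test. Of 1561 genes with at least 100 mean CPM in the class, 237 were above the highest of the IVD, myeloid, lymphoid and unnamed class in all 8 libraries, and 19 were at least 4-fold above it in all 8. A class entered the comparison in a library only where it had at least 20 cells there, and the lymphoid class had 0 cells in CON rats 2, 3 and 4 and LDP rat 1, so it was compared in the other 4 libraries. Of the leading 20 genes, 8 stayed among the 20 when genes down to 20 mean CPM were admitted, and 12 when the unnamed class was left out. The gene with the largest median ratio was Rbp7, a retinol binding protein of capillary endothelium, at 118 to 330 mean CPM in the class and 16.6-fold above the next class, with a log2 ratio that ranged from 2.26 to 5.23 over the libraries. Cd34, the sialomucin of vascular endothelium and blood progenitors, followed at 10.5-fold, and Clec14a, an endothelial C-type lectin, at 9.84-fold. The other genes of the leading 20 fell into recognisable groups: the receptors Aplnr (apelin), Tek (angiopoietin) and the phosphatase Ptprb that acts on it, the junction genes Cdh5 and Cldn5, the transcription factor Sox17, the secreted factors Bmp4 and Cxcl12, and the leukocyte-binding and haemostatic genes Sele, Selp and Vwf. Ecscr, Emcn, Ctnnal1, Fam167b, Fam110d and RGD1310587 completed the 20.

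The levels of these 20 genes themselves varied between rats. Sele, the E-selectin that marks activated endothelium, was at 466, 273, 276 and 754 mean CPM in CON and 339, 177, 437 and 294 in LDP. Vwf, the von Willebrand factor stored by venous and arterial endothelium, was at 194, 96.3, 73.8 and 173 in CON and 124, 135, 62.7 and 54.6 in LDP. For both genes the groups overlapped, and neither passed limma's test across all genes (adjusted p = 0.974 for both). The class closest to the endothelial one was the unnamed class, in which Cdh5 averaged 167 mean CPM, against 16.1 in the myeloid and 1.96 in the lymphoid class. Several genes commonly used for vessels, such as Pecam1, Robo4, Ackr1 and Stab2, were not listed in the 2-week files and are not analysed here.

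The class was not uniform. Leiden clustering of the 6395 cells of both groups together, at a resolution of 0.5, gave 10 sub-clusters, which were named only where at least 3 markers of a fixed list were among their 20 leading genes. Leading genes are again a description, since the cells were clustered on them.

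Sub-cluster 2 (1148 cells) was tip and sprouting-like: Esm1, which is made by endothelial tip cells, averaged 287 mean CPM in it and 16.3 in the rest of the class, and the basement membrane collagen Col4a1 4212 and 1173. Pgf and Adm of the same list instead led in sub-cluster 3, at 802 and 740 mean CPM against 211 and 189. At a resolution of 1 this name went to sub-clusters of 230 and 113 cells, and at 0.25 it was not given. Sub-cluster 4 (439 cells) was capillary-like, led by the carbonic anhydrase Car4 (364 and 2.13 mean CPM) with Gpihbp1, which anchors lipoprotein lipase on capillaries, and the transcription factor Tcf15. It had Fabp4 at 13757 mean CPM and Plvap in only 22.1% of cells. Sub-cluster 7 (116 cells) was cycling-like, with Mki67 at 730 mean CPM against 10.2 in the rest. Among its leading genes were also the lymphoid gene Rag1 (116 against 0.839 mean CPM) and Cd74 (233 against 5.19). Its median was 3811 UMIs, and Cdh5 was seen in 87.9% of its cells. LDP rats 3 and 4, whose libraries held 2781 and 1406 lymphoid cells, gave 32 and 37 of its cells. Whether all of them were dividing endothelial cells was not tested. Sub-cluster 8 (43 cells) was lymphatic-like, with the lymphatic master regulator Prox1 at 940 against 4.18 mean CPM, and Flt1 in only 6.98% of its cells.

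The remaining large sub-clusters stayed unnamed. Sub-cluster 1 (1351 cells) had Csf3, Tfpi2, Cxcl9, Ifit3, Cxcl10, Apol9a, Selp, Fgl2, Cxcl1 and Sele as its leading genes. Sub-cluster 3 (875 cells) had Akr1b8, the cystine transporter gene Slc7a11 and the chemokine gene Ccl2 among its leading genes (for Ccl2, 1992 mean CPM against 483). Sub-cluster 5 (1450 cells) was led by Mal and Ctnnal1 and had the highest Vwf among the sub-clusters, 280 mean CPM. Sub-cluster 6 (639 cells) was led by Cyp1b1 and Cldn5 (986 mean CPM against 37.0), and Plvap was seen in 13.5% of its cells.

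Sub-cluster 9 (311 cells, against 232 in the mural-like sub-cluster at a resolution of 1 and at 0.25) was mural-like. Rgs5 (770 mean CPM against 4.69), Tagln (468 against 11.8), Myh11, Abcc9 and Pdgfrb, genes of pericytes or smooth muscle, were among its 20 leading genes, yet Cdh5 was seen in 79.4% of its cells and Rgs5 in 62.4%. Its cells had a median of 4124 UMIs and 1589 genes, where the rest of the class had 2135 UMIs and 992 genes. Whether these were single cells with both programmes or droplets with an endothelial and a mural cell was not tested. Sub-cluster 10 (23 cells) was erythroid-like, led by haemoglobin genes, and 65.2% of it came from LDP rat 4.

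**Figure D3:**
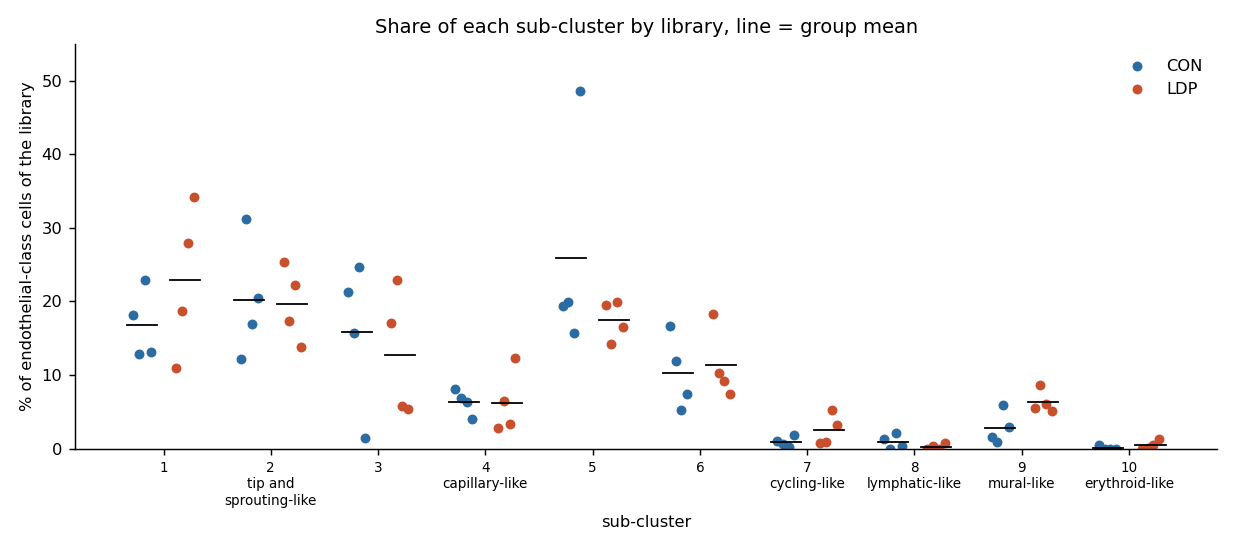
Share of each of the 10 sub-clusters among the endothelial-class cells of a library, CON in blue and LDP in orange, rats 1 to 4 from left to right, with the group mean as a line. The library that stands apart in sub-cluster 5 is CON rat 4 at 48.6%, and the same library has 1.42% in sub-cluster 3.

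The shares of the sub-clusters differed widely between rats of the same group. Sub-cluster 5 made up 19.3, 19.9, 15.6 and 48.6% of the class in CON rats 1 to 4 and 14.2 to 19.9% in LDP. Sub-cluster 3 made up 21.3, 15.8, 24.7 and 1.42% in CON and 17.1, 23.0, 5.72 and 5.34% in LDP, so that both libraries of rat 4 were low. The tip and sprouting-like cells averaged 20.2 ± 8.10% in CON and 19.6 ± 5.12% in LDP, and the capillary-like cells 6.31 ± 1.74% and 6.18 ± 4.38%. The mural-like cells averaged 2.83 ± 2.25% and 6.31 ± 1.56%, given as a description, since their leading genes include those that differed between the groups in edgeR. None of the 10 shares passed the exact permutation test after adjustment (smallest unadjusted p = 0.0857, smallest adjusted p = 0.667). Within rats the mural-like share was higher in LDP in all 4, from 1.55 to 5.45%, 0.893 to 8.59%, 5.96 to 6.05% and 2.93 to 5.17% in rats 1 to 4, for which exact sign flips give p = 0.125, the smallest they can give. Sub-cluster 8 held 12, 0, 14 and 4 cells in CON and 0, 5, 0 and 8 in LDP. A count of 0 still allows a share of 0.893% in CON rat 2, 1.17% in LDP rat 1 and 0.490% in LDP rat 3. At a resolution of 1, a sub-cluster of 502 cells was led by the neutrophil genes S100a8, Camp, Ngp and S100a9, and 438 of its cells (87.3%, Clopper-Pearson 95% interval 84.0 to 90.0%) came from the single library of LDP rat 4. The summed neutrophil list of the class was nevertheless no higher there (61.0 mean CPM) than in LDP rats 2 and 3 (62.0 and 69.2). Another of 99 cells was fibroblast and outer annulus-like, with Col1a1, Lum, Dcn and Igfbp6 among its leading genes.

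To compare injured with uninjured discs within the class, mean CPM per library was fitted by limma on log2(mean CPM + 1), with the rat as block, over the 8445 genes with a mean CPM of at least 5. Here a difference is LDP minus CON on that log2 scale, and a gene passed where its Benjamini-Hochberg adjusted p was under 0.05. No gene passed in limma (0.0% of the genes tested), and the smallest adjusted p was 0.227. Without adjustment, 357 genes (4.23%) had a limma p under 0.05. Left without rat 1, 2, 3 or 4, limma called 8, 5, 0 and 1 genes, among them the neutrophil genes S100a8 and S100a9 without rat 1 and Tagln without rat 4. The median difference over all genes was −0.11, and −0.01 with the TMM scaling of edgeR. On the limma scale 5707 of the 8445 genes (67.6%) had a lower estimate in LDP and 2738 a higher one, against 4302 (50.9%) and 4143 in edgeR. Counts of higher and lower members of a list are to be read against these shares.

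The count tools gave a different number. On the whole UMI counts recovered from the deposited values and summed per library, edgeR's quasi-likelihood test with the rat as block called 31 genes higher in LDP (0.367% of those tested) and 0 lower (391 genes at an unadjusted p under 0.05). DESeq2 called 40 (0.474%), 39 higher and 1 lower, and 30 genes were called by both. The 10 genes that DESeq2 called and edgeR did not were Adamts4, Angptl4, Crem, Dpt, Gja4, Hist1h1c, Hopx, Il6, Ptgir and Zeb2. Of the 8 members of the mural list that were tested, edgeR called 5 (against 0.367% of all genes), namely Tagln, Rgs5, Myh11, Abcc9 and Pdgfrb. The others included the smooth muscle genes Tpm2 and Myl9, the regulator of G-protein signalling Rgs4, the guanylate cyclase subunit Gucy1b3, the fibroblast and pericyte surface gene Thy1, the mesenchymal transcription factor Twist1 and the hexokinase Hk2. All 31 were at least 4-fold higher in the mural-like sub-cluster than in the rest of the class (4.39- to 53.1-fold), a property of 70 of the genes tested (0.829%). This fold, here and below, was taken after adding 10 to both mean CPM values, which makes it smaller than the plain ratio.

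Tagln, the actin-binding transgelin of smooth muscle, was at 7.19, 7.32, 10.1 and 29.4 mean CPM in CON and at 32.7, 62.8, 44.0 and 45.7 in LDP. It was higher in LDP in all 4 rats and the groups did not overlap, although the lowest LDP library was close to CON rat 4. The difference was 1.90 ± 0.32 (SE) on the log2 scale, at an adjusted p of 0.227 in limma and 8.57e-04 in edgeR. Npy1r, a receptor for the vasoconstrictor neuropeptide Y, was at 1.70, 0, 6.57 and 3.16 mean CPM in CON and at 22.8, 22.6, 16.7 and 16.8 in LDP, again without overlap (2.76 ± 0.48 on the log2 scale; adjusted p = 0.227 in limma and 8.57e-04 in edgeR). Rgs5, the leading pericyte gene, was at 19.2, 2.14, 28.6 and 19.8 in CON and 46.4, 100.2, 54.7 and 29.2 in LDP, where the groups did not overlap but LDP rat 4 and CON rat 3 lay next to each other (edgeR adjusted p = 0.00447, limma 0.974).

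The 10 genes with the smallest p among those higher in all 4 rats were Tagln, Npy1r, Tpm2, Olfml2b, Cwc25, Myl9, Ifitm1, Abcc9, C1qtnf1 and Gjc1, with differences of 0.74 to 2.76. They did not pass the threshold in limma and all passed it in edgeR. Npy1r, Olfml2b and Ifitm1 averaged 2.86, 2.28 and 4.85 mean CPM in CON and 19.7, 12.8 and 14.3 in LDP. They thus met the filter of 5 mean CPM only through LDP, and their p-values are to be read as a description. Of the other genes called by edgeR, at least Pdgfrb, Gucy1b3, Rgs4, Cxcl3, Adcy3, Cryab, Dusp14, Fst and Plagl1 met the filter in the same way. The 31 edgeR calls, and Pdgfrb among the 5 of the mural list, are to that extent a description too. Tpm2, a tropomyosin, was at 6.00 to 13.4 mean CPM in CON and 22.6 to 45.9 in LDP. Ifitm1, an interferon-induced membrane protein, was at 2.54 to 7.07 in CON and 12.2 to 16.9 in LDP, and Gjc1, a connexin of vascular muscle, was at 29.2 to 48.9 and 46.7 to 89.3. All 10 genes with the smallest p were among those at least 4-fold higher in the mural-like sub-cluster.

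When the 311 cells of the mural-like sub-cluster were left out, an alternative chosen after seeing the data, edgeR called 0 genes (282 at an unadjusted p under 0.05, smallest adjusted p = 0.995) and limma 0 (337 and 0.974). The mean within-rat difference of the same 10 genes then ran from −1.36 to 0.56, with a median of −0.01, where it had been 1.59 with those cells. Tagln without them was at 5.78 to 18.7 mean CPM in CON and 1.56 to 17.7 in LDP. The cells left out were 91 from CON and 220 from LDP. As they had been clustered on genes that include those called, a loss of the calls was to a large extent set by the choice of cells, and these values are a description of where the transcripts lay, not a separate test.

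The placing of mural cells differed between the groups. Cells with a UMI of at least 4 of 11 mural markers numbered 931 in CON and 557 in LDP over all classes. In CON, 81.2% of them were in the unnamed class, 17.3% in the IVD class and 1.40% in the endothelial class. In LDP, 9.16% were in the unnamed class, 67.1% in the IVD class and 23.7% in the endothelial class. Per library, 1.12, 0, 0.290 and 3.60% of these cells in CON and 16.4, 27.2, 18.9 and 23.8% in LDP were in the endothelial class, without overlap (exact permutation p = 0.0286, the smallest that 8 libraries can give). They made up 0.310, 0, 0.149 and 0.798% of the class in CON and 3.50, 5.07, 2.94 and 3.50% in LDP (exact permutation p = 0.0286). As the mural list holds 5 genes that edgeR called higher in this class, the share of the class restates that difference and is a description. The 0 of 336 cells in CON rat 2 allows up to 0.893%. With every cell thinned to 1000 UMIs, the placing was 0 to 3.92% in CON against 9.68 to 12.9% in LDP (exact permutation p = 0.0286). These shares rest on 1 of 89, 0 of 29, 0 of 63 and 4 of 102 mural-marker cells in CON rats 1 to 4. In LDP they rest on 3 of 27, 9 of 70, 3 of 31 and 3 of 31. The 0 of 29 in CON rat 2 still allows a share as high as the lowest in LDP. The share of the class came to 0 to 0.372% in CON and 0.266 to 1.195% in LDP (exact permutation p = 0.0571). Over all classes, mural-marker cells were fewer in LDP, at 0.632 to 1.501% of all cells against 1.72 to 2.56% (exact permutation p = 0.0286). Since the classes were drawn separately in CON and LDP, the mural content of the endothelial class cannot be told apart from the border of the class. The 4 libraries of a group shared 1 clustering and are not separate replicates of it. The exact p-values for placing, which also leave out the rat pairing, are therefore a description.

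**Figure D4:**
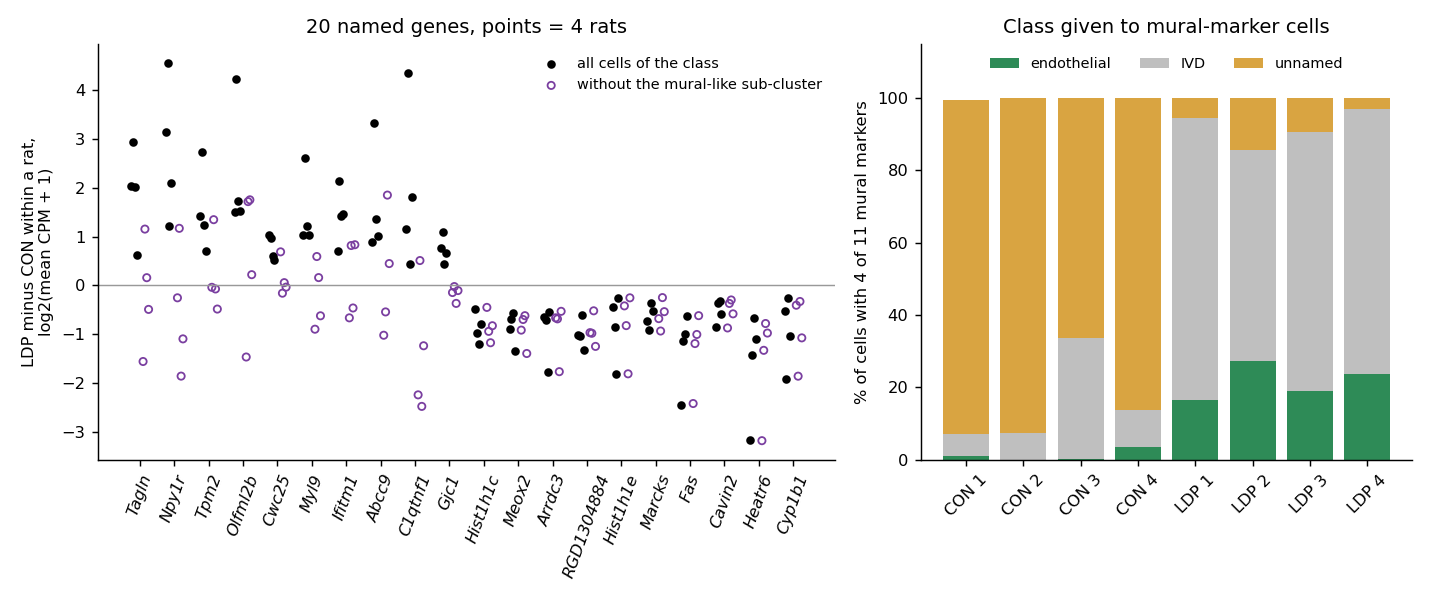
Left: LDP minus CON within each of the 4 rats, on the log2(mean CPM + 1) scale, for the 10 genes named as higher and the 10 named as lower, with all cells of the class (filled) and without the mural-like sub-cluster (open). Right: the class that cells with 4 of 11 mural markers had been given in each library (1 myeloid cell of CON rat 1 is not drawn). The higher genes move from a median of 1.59 to −0.01, the lower ones stay at −0.89 and −0.91, and the endothelial share (green) is 0 to 3.60% in CON and 16.4 to 27.2% in LDP.

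The 10 genes with the smallest p among those lower in all 4 rats did not pass the threshold in limma or edgeR. They were Hist1h1c, Meox2, Arrdc3, RGD1304884, Hist1h1e, Marcks, Fas, Cavin2, Heatr6 and Cyp1b1, with differences of −0.53 to −1.59. None of them was among the genes of the mural-like sub-cluster, and the median was −0.89 with and −0.91 without those cells. Most were also lower in the IVD class of the same libraries. There the difference was −0.80 for Hist1h1c, −0.65 for Meox2, −1.04 for Arrdc3, −0.98 for Hist1h1e and −0.51 for Marcks. It was −1.24 for Cavin2, −0.92 for Cyp1b1 and −0.04 for Heatr6, while RGD1304884 and Fas were not fitted in that class. Apart from Heatr6, the genes fitted in both classes were thus also lower in the cells named IVD. The endothelial minus IVD difference was −1.55 for Heatr6, −1.33 for Fas and −0.59 for RGD1304884 (limma adjusted p = 0.644, 0.676 and 0.676). Hist1h1c, a linker histone, was at 274, 497, 202 and 102 mean CPM in CON and at 196, 251, 88.1 and 58.1 in LDP. Each LDP library was below its own control although the groups overlapped (−0.86 ± 0.16, SE; adjusted p = 0.370 in limma and 0.0770 in edgeR), and it was the only gene that DESeq2 called lower. Its relative Hist1h1e was at 357, 692, 313 and 67.6 in CON and 264, 383, 88.5 and 56.5 in LDP. For both histones the order of the rats was similar in the 2 groups, with rat 2 highest and rat 4 lowest.

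Meox2, a homeobox transcription factor of capillary endothelium in heart and muscle, was at 74.5, 74.8, 59.7 and 109.9 mean CPM in CON and at 39.9, 46.3, 40.1 and 42.8 in LDP. Its groups did not overlap, and the difference was −0.87 ± 0.20 (limma adjusted p = 0.774). Fas, the death receptor, was at 16.3, 19.5, 11.2 and 16.7 in CON and 2.16, 8.29, 5.12 and 10.5 in LDP (−1.31 ± 0.35, limma adjusted p = 0.923). Cavin2, a coat protein of caveolae, was at 352 to 542 in CON and 195 to 414 in LDP. Over all genes tested, every LDP library was below every CON library for 191 genes (2.26%) and above for 34 (0.403%). Each of these orders is 1 of the 70 possible splits of 8 libraries, and on this scale 67.6% of all genes had a lower estimate in LDP. Of the 34, 16 were among the genes of the mural-like sub-cluster, as were 0.829% of all genes tested.

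The growth signals of the vessel wall were read from lists of genes. Of the VEGF and angiopoietin list, which holds ligands and receptors, 13 of 14 genes were tested, 0 passed in limma or edgeR, 2 had a higher and 11 a lower estimate in LDP, and the median was −0.23 (−0.11 in edgeR). Nrp1, a VEGF co-receptor, was at 486, 537, 421 and 495 mean CPM in CON and 386, 456, 348 and 239.9 in LDP, lower in each rat (−0.47 ± 0.16, limma adjusted p = 0.974). Its difference in the IVD class was −0.47 as well. Kdr, the main VEGF receptor, was at 311 to 421 in CON and 225 to 369 in LDP. The ligand Pgf, placental growth factor, was one of the genes with a higher estimate, at 233, 207, 337 and 88.6 in CON and 283, 572, 228 and 265 in LDP, lower in LDP in rat 3 and higher in the other rats (0.69 ± 0.28, limma adjusted p = 0.974).

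Of the BMP and TGF-beta list, 17 of 20 genes were tested, 0 passed in limma or edgeR, 4 had a higher and 13 a lower estimate, and the median was −0.22 (−0.16 in edgeR). The endoglin gene Eng, a co-receptor, was at 540.5 to 624 mean CPM in CON and 425 to 579 in LDP, and its target Id3 at 305 to 472 and 294 to 601. The Notch list had 10 of 13 genes tested and a median of −0.12, which turned to 0.02 in edgeR. The receptor Notch1 was at 181 to 198 in CON and 145 to 205 in LDP, the ligand Dll4 at 106 to 124 and 90.0 to 109, and the target Hes1 at 247 to 346 and 206 to 430. None of the Notch genes passed in limma or edgeR.

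Of the endothelial transcription factors, 23 of 24 were tested, 0 passed in limma or edgeR, 4 had a higher and 19 a lower estimate, and the median was −0.22 (−0.13 in edgeR). Besides Meox2, the flow-responsive factor Klf2 was at 65.0, 89.6, 82.1 and 101 mean CPM in CON and 54.6, 80.1, 35.3 and 29.0 in LDP (−0.84 ± 0.25, limma adjusted p = 0.974). Its difference in the IVD class was −1.13. Nr2f2, which sets venous identity, was at 58.9 to 90.4 in CON and 36.8 to 62.1 in LDP. Erg, the factor that maintains the endothelial state, was at 359 to 611 and 397 to 542, and Klf4 at 695 to 1119 and 704 to 889. The most abundant factors thus had overlapping groups.

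Activated endothelium recruits leukocytes with adhesion molecules and chemokines. Of the adhesion and chemokine list, 19 of 21 were tested, 0 passed in limma or edgeR, 8 had a higher and 11 a lower estimate, and the median was −0.12 (−0.01 in edgeR). The chemokine Ccl2 was at 928, 456, 1214 and 311 mean CPM in CON and 632, 638, 523 and 783 in LDP. Icam1, a ligand of leukocyte integrins, was at 282 to 647 and 314 to 543. The cytokine Il6 was at 16.1, 1.18, 10.4 and 23.5 in CON and 18.1, 23.7, 22.8 and 35.1 in LDP, higher in LDP in each rat (1.32 ± 0.43, adjusted p = 0.974 in limma, 0.0601 in edgeR and 0.00111 in DESeq2, which called it), and it was 5.50-fold higher in the mural-like sub-cluster. The chemokine Cxcl3, which is not on the list, was at 6.25, 0, 1.09 and 6.00 in CON and 15.04, 6.93, 2.38 and 15.06 in LDP, higher in each rat although the groups overlapped (1.505 ± 0.468, adjusted p = 0.974 in limma, 0.0289 in edgeR and 0.00136 in DESeq2), and it was 6.23-fold higher in the mural-like sub-cluster. The colony-stimulating factor Csf3 was at 5.78 to 16.8 and 11.1 to 32.6.

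Endothelial cells respond to interferon and present antigen on class I molecules. Of the interferon list, 23 of 24 were tested, 0 passed in limma and 1, Ifitm1, in edgeR (0.367% of all genes), 4 had a higher and 19 a lower estimate, and the median was −0.21 (−0.11 in edgeR). Irf1, an interferon-induced transcription factor, was at 418, 436, 371 and 522 mean CPM in CON and 332, 352, 309 and 363 in LDP, without overlap (−0.36 ± 0.14, limma adjusted p = 0.974), and Bst2 at 1036 to 1425 and 822 to 1500. In the IVD class the difference of Irf1 was −0.70. Of the antigen-presentation list 9 of 17 were tested and 0 passed in limma or edgeR (median −0.09, and 0.01 in edgeR). B2m, the light chain of class I molecules, was at 5201 to 6148 in CON and 4583 to 8472 in LDP, with LDP rats 1 and 4 at the ends.

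The immediate early list, whose genes also respond to tissue digestion, had 19 of 21 genes tested, 0 past the threshold in limma or edgeR and a median of −0.19 (−0.10 in edgeR). Jun was at 2147, 2314, 2075 and 2275 mean CPM in CON and 1613, 1766, 1867 and 1709 in LDP, lower in each rat and without overlap (−0.34 ± 0.12, limma adjusted p = 0.974). In the IVD class the difference of Jun was −0.57. Atf3 was at 1468 to 2266 and 1172 to 1779, and the heat shock gene Hspb1 at 3216 to 5695 and 3173 to 6663. Rat 4 held the highest level of Atf3 and of Hspb1 in both groups.

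For the structure of the vessel wall, the basement membrane list had 16 of 17 genes tested, 1 with a higher and 15 with a lower estimate, 0 past the threshold in limma or edgeR, and a median of −0.18 (−0.06 in edgeR). Col4a1 was at 1226 to 2291 mean CPM in CON and 964 to 2365 in LDP, and the fibronectin gene Fn1 at 582 to 1487 and 538 to 912. The junction and permeability list had 18 of 21 genes tested, 6 higher and 12 lower in estimate, 0 past the threshold in limma or edgeR, and a median of −0.18 (−0.11 in edgeR). The caveolin gene Cav1 was at 1561 to 1730 in CON and 1289 to 1835 in LDP. The haemostasis and vessel tone list had a median of −0.10 (−0.06 in edgeR) over 16 of 18 genes, none of which passed in limma or edgeR. The thrombomodulin gene Thbd was at 462 to 520.1 and 376 to 567, and Ece1, which activates endothelin, was lower in each LDP library than in its control (310 to 394 and 223 to 349, limma adjusted p = 0.974).

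Of the mesenchymal transition list, 13 of 15 genes were tested, 7 higher and 6 lower in estimate, with 0 past the threshold in limma and 2, Tagln and Twist1, in edgeR (0.367% of all genes). The median was 0.05 (0.10 in edgeR), and −0.17 without the mural-like sub-cluster. Twist1 was at 7.74, 1.34, 12.6 and 10.7 mean CPM in CON and 14.7, 14.3, 14.3 and 12.7 in LDP, and was 7.87-fold higher in the mural-like sub-cluster. Vim, the intermediate filament vimentin, was at 4472 to 6143 in CON and 4561 to 5677 in LDP, and Col1a1 at 768 to 1195 and 321 to 1021. Both members that edgeR called were thus also higher in the mural-like cells, Tagln by 21.9-fold.

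The lists on metabolism and growth were mixed in direction. Hypoxia and glycolysis had 17 of 17 genes tested, 9 higher and 8 lower, and a median of 0.08 in limma and in edgeR, with 0 past the threshold in limma and 1, Hk2, in edgeR (0.367% of all genes). Aldoa was at 486 to 559 mean CPM in CON and 553 to 625 in LDP, higher in LDP in each rat (0.18 ± 0.13, limma adjusted p = 0.974). Fatty acid handling had 11 of 14 genes tested and a median of −0.10 (0.13 in edgeR), and cell cycle 13 of 22 genes and a median of −0.04 (0.19 in edgeR), with 0 genes past the threshold in limma or edgeR in either list. Stmn1, a tubulin regulator of dividing cells, was at 328 to 431 and 410.1 to 441.3, and Mki67 at 7.67 to 38.6 and 12.3 to 32.9.

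**Figure D5:**
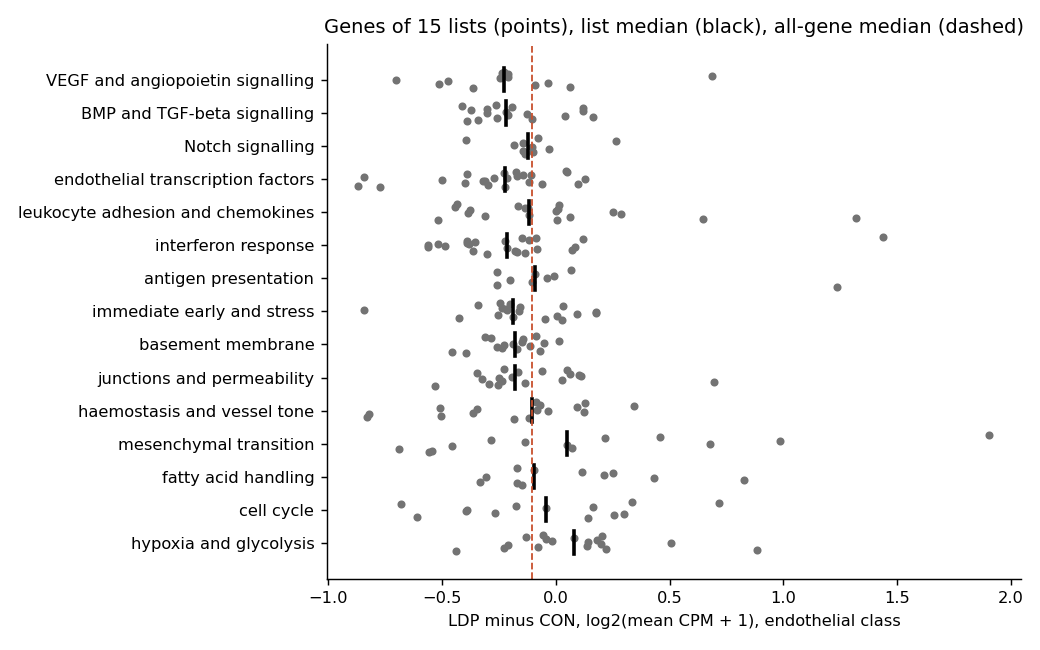
LDP minus CON on the log2(mean CPM + 1) scale for every tested gene of 15 lists in the endothelial class, with each list's median as a black bar and the median of all 8445 genes (−0.11) as a dashed line. List medians lie between −0.23 and 0.08, and the genes farthest to the right are Tagln (1.90), Ifitm1 (1.44) and Il6 (1.32).

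By vessel type, the venous list (7 of 8 genes tested) had 7 lower estimates and a median of −0.44 (−0.38 in edgeR), and its summed level was 713 to 1510 mean CPM in CON and 639 to 899.9 in LDP. The arterial list (9 of 12 tested) had a median of −0.15 (−0.08 in edgeR) and a sum of 695 to 1049 in CON and 799 to 866 in LDP. The capillary list (9 of 11) had a median of −0.17 that turned to 0.16 in edgeR, and the tip and sprouting list (12 of 12) −0.07 and 0.12. The lymphatic list (5 of 7) had 5 lower estimates and a median of −0.77 (−0.83 in edgeR), with sums of 40.9 to 173 in CON and 28.2 to 71.8 in LDP. Mmrn1, a gene of lymphatic endothelium, was at 51.8, 12.1, 67.6 and 26.9 mean CPM in CON and 8.25, 23.1, 4.15 and 11.8 in LDP, where rat 2 went the other way (−1.62 ± 0.52, limma adjusted p = 0.974). The sinusoidal list (3 of 6) had a median of −0.43 (−0.39 in edgeR). No gene of these lists passed the threshold in limma or edgeR. Cells with at least 3 of 7 lymphatic markers numbered 35 in CON, 31 of them in the class, and 12 in LDP, 8 of them in the class.

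Markers of other cell types were present in the class and moved between libraries. The summed level of the mural list was 69.8, 35.0, 77.9 and 112 mean CPM in CON and 164, 279, 179 and 142 in LDP, higher in all 4 rats and without overlap. The disc list, which includes Col2a1 and Acan, summed to 2001, 1839, 4991 and 5036 in CON and 2251, 3111, 2456 and 1219 in LDP, and the fibroblast and outer annulus list to 1530 to 2488 and 842 to 2117. The erythroid list summed to 1146, 30.8, 91.3 and 73.8 in CON and 6.70, 180, 676 and 3171 in LDP. The neutrophil list summed to 160, 0, 1.45 and 0.464 in CON and 5.68, 62.0, 69.2 and 61.0 in LDP, so that CON rat 1 and LDP rats 2 to 4 held most of both. Myeloid markers summed to 32.2 to 63.9 and 30.8 to 91.8, lymphoid markers to 0 to 5.03 and 2.49 to 64.8, Schwann cell markers to 4.99 to 9.96 and 4.32 to 15.1, and muscle markers to 0.478 to 5.204 and 0 to 3.13. Osteoblast markers summed to 186 to 501 and 267 to 315. Limma called 0 genes with or without the disc and fibroblast genes and the cells that held myeloid, lymphoid or mural UMIs, so these runs had no call to lose. The part of all these transcripts in the differences above was not tested.

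Whether LDP and CON differed otherwise in the class than in the disc cells of the same libraries was tested on the difference of log2(mean CPM + 1) between the endothelial and the IVD class. Of 9276 genes, limma called 0 (0.0%; smallest adjusted p = 0.544, and 648 genes at an unadjusted p under 0.05). Without rat 3 it called 1. The IVD class of CON held more endothelial-marker cells than that of LDP, and the markers Cdh5 and Plvap had differences of 1.91 and 2.20 here. A difference in this test therefore cannot be told apart from the border of the IVD class. The smallest p on the higher side belonged to Pdgfrb, the PDGF receptor of mural cells, at 5.01, 1.53, 1.64 and 3.47 mean CPM in CON and 13.2, 13.1, 5.40 and 8.76 in LDP in the endothelial class, and at 19.99 to 23.6 and 14.03 to 26.7 in the IVD class. The endothelial minus IVD difference was 1.78 ± 0.22 on the log2 scale. Adcy3, Ifitm1, Gucy1b3 and Olfml2b followed, with differences of 1.71, 1.69, 1.78 and 2.53. All 5 were at least 4-fold higher in the mural-like sub-cluster. In the endothelial class they averaged only 2.22 to 4.85 mean CPM in CON, so that they entered the test through LDP or through the IVD class.

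On the lower side, Scn7a, a sodium channel of Schwann cells and neurons, and the homeobox gene Hoxd10 were higher in LDP than CON in the IVD class and at 0 to 1.76 mean CPM in the endothelial class, with differences of −2.64 and −1.75. Since both genes were under 5 mean CPM in the endothelial class and were tested through their level in the IVD class, these differences restate the IVD values and give no endothelial response. The mitochondrial ribosomal protein gene mrpl11 was at 7.49 to 17.1 in CON and 2.77 to 7.64 in LDP in the endothelial class, where the groups overlapped. Slc35c2, at 2.39 to 7.87 and 0 to 2.43, overlapped too, and like Scn7a and Hoxd10 it was under 5 mean CPM in the endothelial class and tested through its IVD level. None of these genes passed the threshold in limma.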

How the data were processed

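Cells of 8 libraries, from 4 rats with a CON and an LDP library each, were analysed; 8-week libraries entered only the cell total. The authors processed 10x 3′ libraries in Partek Flow on the rn6 build (submitters' processing notes); the aligner, the treatment of doublets and of free RNA are not given in the sources used here, and no doublet caller was run. Cells had been filtered by the authors on mitochondrial share, genes and UMIs, and K-means clusters had been named by marker genes. The deposited gene values were log2 values of CPM plus a pseudocount of 1, made by the authors from UMI counts. Beside them, the authors deposited each cell's total as estimated counts (expected counts), its number of detected genes as counts and its mitochondrial share in percent. Whole UMI counts were recovered from the log2 values and the totals, with 99.4% of non-zero values whole within 0.02. Each library listed 14124 to 14202 genes, 13878 of them in all 8.

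Mean CPM per library was fitted by limma 3.58.1 on log2(mean CPM + 1), for genes with a mean CPM of at least 5, with the rat as block, because the files hold log2 values; edgeR 4.0.16 and DESeq2 1.42.0 on summed recovered counts were alternatives (R 4.3.3). Libraries of a rat came from the same animal, which is where the pairing comes from; their deviations from the group means correlated by −0.07, 0.01, 0.08 and 0.14. Sub-clusters were made with scanpy 1.11.5 and Leiden (igraph 0.11.9) on Python 3.11.15 with NumPy 2.4.6 and SciPy 1.17.1. Single values were compared by exact permutation of libraries. Scripts were tested on simulated data. The limits on precision are the shallow cells and 4 rats per group; intervals cover counting error only.

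The genes named were the 6 class markers, the 20 leading genes of the class profile, 10 genes per direction of change filled by smallest p among those moving alike in 4 of 4 rats, up to 4 members of each list by level, and 5 genes per direction of the comparison with disc cells, of which 1 is not reported here. Vwf and Sele are also among the profile genes. Kdr, Pgf, Klf2, Nr2f2, Il6, Csf3, Cxcl3, Irf1, Twist1, Mki67, Mmrn1, Rgs5, S100a8 and S100a9 were chosen after their values were seen. The members and lists were chosen with earlier results of these data known.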

Additional observations from a re-analysis of the deposited data

Results flagged for a closer look

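Of 94 groups of 4 libraries that were checked, 12 had a lowest or highest library whose gap to its nearest neighbour was more than 0.829 of the whole range (Dixon's limit for 4 values), and chance marks about 1 in 20 groups at this limit. Among CON libraries, rat 3 had the fewest endothelial-class cells per 100 IVD-class cells (gap 0.894 of the range) and the most IVD-class cells with 2 of the 5 markers (0.934). CON rat 1 was lowest in the thinned share of cells with Plvap (0.841) and alone had erythroid-like cells, sub-cluster 10 (1 of the range). CON rat 4 was highest in the share of sub-cluster 5 (0.870) and lowest in the log2 level of Cdh5 (0.853) and of Arrdc3 (0.853). CON rat 2 was lowest for Olfml2b, which was at 0 (0.944).

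Among LDP libraries, rat 1 had the highest median number of genes per cell (0.897) and rat 2 the highest median mitochondrial share (0.861). LDP rat 4 was lowest in the thinned share of cells with Cdh5 (0.871), and LDP rat 2 was lowest in the log2 level of Emcn (0.848).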

How the results depend on the processing

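Of the genes above every other class in all 8 libraries, 237 were found at 100 mean CPM, 527 when genes of at least 20 mean CPM were taken (more genes were tested) and 330 without the unnamed class; of the leading 20 genes, 8 and 12 stayed among the 20. For LDP against CON, limma called 0 genes, edgeR 31 and DESeq2 40, all with the rat as block; the cause was not tested. Leaving out 1 rat in turn gave 0 to 8 calls in limma (8 without rat 1, 5 without rat 2, 0 without rat 3, 1 without rat 4), and 0 to 1 for the endothelial against disc cell difference (1 without rat 3). Without the replicate block, limma called 0 genes (smallest adjusted p = 0.223) and 0 for the difference (0.219), so the pairing changed no call there. Limma also called 0 genes with a pseudocount of 10 (smallest adjusted p = 0.111), no filter on low values (0.615), at least 20 mean CPM (0.659), median-centring (0.0736), without disc and fibroblast genes (0.193), with 2 markers required (0.148), with cells of at least 1000 UMIs (0.124), and without cells holding myeloid, lymphoid or mural UMIs (0.958). Alternatives chosen after seeing the data, without the mural-like cells and without the mural-, lymphatic- and erythroid-like cells, gave 0 calls in limma (0.974 and 0.775).

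The difference in endothelial cells per 100 IVD cells ran from −2.51 to 0.866 when 1 rat was left out, turning positive without rat 1, and sign flips within rats, the paired test, gave an exact p of 0.75. With 3 rats the exact permutation test cannot go below 0.1. Marker shares, depth and sub-cluster shares gave 0 calls under every alternative run, where a single marker or sub-cluster share could not have passed after adjustment. Of 2375 values of single genes, shares and sub-clusters under alternatives, 211 had the other sign and 36 passed a threshold that the main value had not. Unnamed sub-clusters could not be matched across resolutions. Genes near the floor of 5 mean CPM rest on few UMIs, and small differences in them were not detectable at this depth.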
